A study of Rattus norvegicus with 18 samples.

Results

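The circadian clock genes measured here were Dbp, Tef, Per1, Per2, Per3, Bhlhe40, Nr1d1, Nr1d2, Arntl and Npas2, 10 of the 14217 genes that the array annotation of the rat names with a probe set of their own. They were found by gene symbol (Arntl stands in the annotation as Bmal1), and were proposed with changes in these same arrays already known, so the tests below describe each probe set and are no independent support. They hold 16 of the 31042 probe sets that are not controls, and the probe set of each gene was chosen by the highest mean log2 signal over all 18 samples, which is therefore no result. Per2 and Per3 each had 1 further probe set, and Nr1d2 and Tef each had 2.

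RNA came from tongue epithelia and tongue submucosal fibroblasts at 3 stages, normal, dysplasia and squamous cell carcinoma (SCC), with 3 samples for each cell type and stage and 1 Affymetrix array a sample. The animals were male SD (Sprague-Dawley) rats. Dysplasia and SCC arose in rats that drank 0.002% 4-nitroquinoline 1-oxide (4NQO), a carcinogen that forms DNA adducts, and these rats were killed when lesions became visible, between week 14 and week 22. The normal tissue came from rats on distilled water without 4NQO. The sources used here give no week of killing for single samples or for the normal rats. Stage therefore cannot be told apart from age or from the length of 4NQO exposure. The study describes each sample as tissue of 3 rats pooled, and nothing says that the samples of a group came from separate animals or cultures, so a p-value here gauges the scatter of the pools, part of which may be technical. The epithelial sheet was lifted off after a night in dispase in the cold, and fibroblasts were the cells of the collagenase-treated connective tissue that stuck to a dish within a short culture in serum. The sources used here do not give the time of day at which tissue was taken, and its part in the results was not tested.

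The clock of a mammalian cell is a loop of transcription and repression. Arntl pairs with Clock or Npas2, binds E-boxes and switches on the period and cryptochrome genes, whose proteins return to the nucleus and shut the pair down. In a second loop the nuclear receptors Nr1d1 and Nr1d2 repress Arntl and Npas2 through response elements that they share with the activating ROR receptors, and the bZIP factors Dbp, Tef and Hlf drive genes with a D-box against the repressor Nfil3. Levels of these transcripts swing over the day in most tissues, oral mucosa included, and a pooled sample taken at a single time shows a single point of that swing.

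The DNA elements through which the loops are known to act were looked for in the promoters of the members, since members of the E-box, D-box and receptor arms were measured together. The searched windows were the 250 bases before a transcript start in the RefSeq annotation of the rat build GRCr8, 11 windows for the 10 genes, because Nr1d1 has a pair of starts. Both strands were read for the E-box CACGTG, the E′-box CACGTT, the D-box TTATGTAA and the core TAGGTCA of the receptor element, and no matches overlapped. Of all 33469 promoter windows of that length, 5.593% held CACGTG, 4.069% held CACGTT, 0.828% held TTATGTAA and 2.256% held TAGGTCA. The windows of members with a match are shown 5′ to 3′ on the strand of the gene, ending at the base before the start, with the match in capitals, and those of Per2, Tef, Arntl and the second start of Nr1d1 lie wholly or partly within a longer model of the gene.
Per2: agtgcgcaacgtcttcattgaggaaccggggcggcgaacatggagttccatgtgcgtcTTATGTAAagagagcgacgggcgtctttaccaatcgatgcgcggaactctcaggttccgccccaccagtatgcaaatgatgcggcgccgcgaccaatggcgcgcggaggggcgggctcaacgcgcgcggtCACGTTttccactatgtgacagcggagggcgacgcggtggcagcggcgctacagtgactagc
Tef: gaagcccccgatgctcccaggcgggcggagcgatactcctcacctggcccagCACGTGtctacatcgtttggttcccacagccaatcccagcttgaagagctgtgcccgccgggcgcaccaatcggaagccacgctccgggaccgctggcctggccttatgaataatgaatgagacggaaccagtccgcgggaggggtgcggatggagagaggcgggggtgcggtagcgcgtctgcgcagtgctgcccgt
Bhlhe40: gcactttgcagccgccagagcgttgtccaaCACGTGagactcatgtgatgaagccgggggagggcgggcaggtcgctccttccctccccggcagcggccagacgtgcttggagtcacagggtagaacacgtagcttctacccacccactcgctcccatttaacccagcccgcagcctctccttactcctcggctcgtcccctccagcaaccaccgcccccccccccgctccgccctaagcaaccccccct
Nr1d1, first start: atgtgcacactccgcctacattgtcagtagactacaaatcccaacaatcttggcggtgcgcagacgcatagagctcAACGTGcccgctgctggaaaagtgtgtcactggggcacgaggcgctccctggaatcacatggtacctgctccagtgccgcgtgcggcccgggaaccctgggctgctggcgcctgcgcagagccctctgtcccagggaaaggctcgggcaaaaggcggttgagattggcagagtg
Nr1d1, second start: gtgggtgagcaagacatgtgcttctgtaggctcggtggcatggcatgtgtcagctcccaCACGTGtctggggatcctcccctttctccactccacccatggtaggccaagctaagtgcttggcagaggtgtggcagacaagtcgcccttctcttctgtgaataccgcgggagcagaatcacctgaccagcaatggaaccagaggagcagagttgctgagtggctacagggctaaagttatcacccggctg
Arntl: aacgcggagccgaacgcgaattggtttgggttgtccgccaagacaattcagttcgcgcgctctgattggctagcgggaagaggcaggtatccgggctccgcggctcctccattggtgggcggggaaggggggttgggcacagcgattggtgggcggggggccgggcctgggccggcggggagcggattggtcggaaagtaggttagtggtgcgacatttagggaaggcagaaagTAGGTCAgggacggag

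Per2 (chr9:99496994-99497243 on the minus strand) held 2 of these elements, a D-box at positions -192 to -185 and an E′-box at -62 to -57 from the start. Tef (chr7:115206577-115206826 on the plus strand) had an E-box at -198 to -193, and Bhlhe40 (chr4:143174200-143174449 on the plus strand) had 1 at -220 to -215. The first start of Nr1d1 (chr10:84231813-84232062 on the minus strand) had an E′-box on the opposite strand at -174 to -169, and the second (chr10:84229455-84229704 on the minus strand) an E-box at -191 to -186. Arntl (chr1:176766078-176766327 on the plus strand) carried the receptor core at -16 to -10. A match is a description of letters and not a measured binding site, and these arrays do not measure binding.

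The deposited values are linear probe set signals, which were taken to log2, so a difference of 1 is a factor of 2. The stages were compared by limma, separately for the 9 epithelial and the 9 fibroblast arrays, and a probe set was called where its Benjamini-Hochberg adjusted p over all 31042 probe sets was under 0.05. Stages of 1 cell type share their normal samples, so that the changes to dysplasia and to SCC are not independent. In such bulk samples fewer cells of a type and less RNA per cell cannot be told apart. Markers of epithelial cells (15 of 20 listed genes measured) had a mean log2 signal of 12.94 to 13.17 in the 9 epithelial samples. In normal epithelia 12 of the 15 were called higher than in normal fibroblasts, beside 35.7% of all probe sets. But these markers stood at 12.45 to 12.67 in the first and second fibroblast samples of every stage and at 10.38 to 11.89 in the third. The first and second fibroblast samples differed by a median of 0.09 to 0.12 in log2 signal over 14424 brighter probe sets, and the third from either by 0.26 to 0.31, while epithelial samples of 1 stage differed by 0.10 to 0.23. The fibroblast results of the 10 members are therefore given with and without the third samples, and those of other listed genes over all samples. Without the third samples 2 remain in each stage, those with the higher epithelial markers. The standard errors of such stage fits rest on the gap between these close samples. Added calls there are therefore no stronger evidence than those over all samples.

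**Figure D1:**
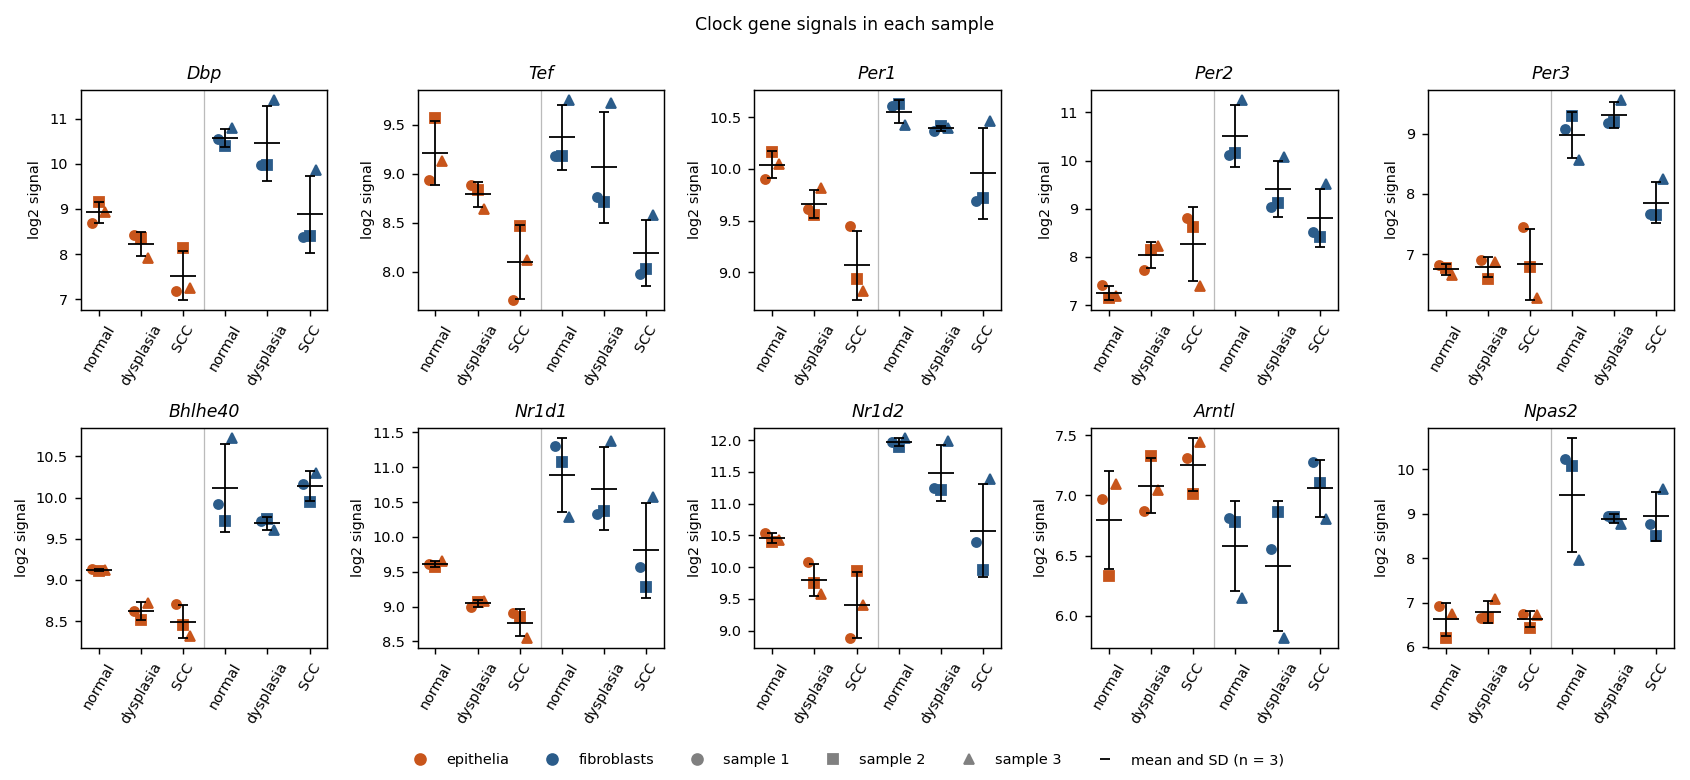
Log2 signal of the 10 clock genes in each of the 18 samples, 1 panel a gene, with epithelia left and fibroblasts right in the order normal, dysplasia and SCC. Points are samples, marked by sample number, and bars give the mean and SD (n = 3); Dbp lies at 7.18 to 8.14 in SCC epithelia and 8.70 to 9.16 in normal epithelia, and the third fibroblast samples often stand apart.

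In the epithelia, 6 clock genes were lower in SCC than in normal tissue: the D-box activators Dbp and Tef, the period gene Per1, the repressor Bhlhe40 and the receptors Nr1d1 and Nr1d2. Their falls lay between 1.54-fold for Bhlhe40 and 2.65-fold for Dbp, and each of the 6 calls held with any of the 9 epithelial arrays left out, although the methods' t-test called Nr1d1 and Bhlhe40 alone and a fit of all 18 arrays did not call Nr1d1. Per2 alone was called higher, by 2.03-fold, but not by the fit of all 18 arrays, with the sample number as a block, by the methods' t-test or with the mean of its probe sets, and Per3, Arntl and Npas2 were not called. The 6 lower members of 10 stand beside 17.3% of all probe sets called lower in this comparison, and the 1 higher member beside 12.6% called higher. The median of the members was -0.74 on the log2 scale, and that of all probe sets -0.09.

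Part of this difference was already measured in dysplasia. Nr1d1 and Bhlhe40 were lower in dysplasia epithelia than in normal epithelia, 2 of 10 members against 7.54% of all probe sets called lower, and no member was higher, where 7% were called higher. The median of the members was -0.40, against -0.06 over all probe sets. Between SCC and dysplasia epithelia limma called 0 members, where it called 0.0258% of all probe sets. At an unadjusted p under 0.05, 4 members passed, Dbp, Per1, Nr1d1 and Tef, each lower in SCC, against 14.2% of all probe sets, and the methods' t-test called 0 after adjustment and gave 2 members at an unadjusted p under 0.05, Per1 and Tef, against 9.73% of all probe sets.

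Among the D-box factors, Dbp, a bZIP activator whose transcript follows the clock closely, had log2 signals of 8.70, 9.16 and 8.93 in normal epithelia, 8.41, 8.35 and 7.91 in dysplasia epithelia and 7.18, 8.14 and 7.25 in SCC epithelia. All SCC samples lay below all normal samples, while the second SCC sample reached into the range of dysplasia. The log2 change from limma was -1.41 for SCC against normal (standard error 0.26, n = 3 each, adjusted p = 0.00498) and -0.70 for dysplasia against normal (standard error 0.26, adjusted p = 0.106). Tef, a paralog of Dbp, stood at 8.93, 9.57 and 9.13 in normal epithelia, at 8.89, 8.84 and 8.64 in dysplasia epithelia and at 7.72, 8.47 and 8.12 in SCC epithelia. The 3 stages did not overlap in Tef, and SCC was lower than normal by 2.16-fold (log2 change -1.11, standard error 0.22, adjusted p = 0.00586 from limma). The other probe sets of Tef changed less, by -0.40 (adjusted p = 0.0450) and -0.34 (adjusted p = 0.0805).

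The period genes, which encode the repressors of the loop, did not move as 1 group. Per1 had 9.91, 10.17 and 10.05 in normal epithelia, 9.61, 9.55 and 9.81 in dysplasia epithelia and 9.45, 8.94 and 8.82 in SCC epithelia, with no overlap between the stages. It was 1.96-fold lower in SCC than in normal epithelia (log2 change -0.97, standard error 0.17, adjusted p = 0.00381 from limma). Per2, in contrast, read 7.42, 7.15 and 7.19 in normal epithelia, 7.73, 8.14 and 8.23 in dysplasia epithelia and 8.81, 8.62 and 7.40 in SCC epithelia. The first and second SCC samples were the highest of all epithelia, and the third lay inside the normal range. Its change of 1.02 for SCC against normal (standard error 0.33, adjusted p = 0.0444 from limma) was lost when any 1 array was left out, with 1 exception, the third SCC sample, without which it was 1.46, and the adjusted p over the 9 fits ran between 0.00141 and 0.121. The second Per2 probe set was flat, at 7.44 to 7.95 in all 18 samples, with a change of 0.04 in SCC against normal epithelia (adjusted p = 0.873).

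Per3 lay between 6.27 and 7.45 over all 9 epithelial samples, with a change of 0.09 for SCC against normal (95% interval -0.49 to 0.67). Its 3 SCC samples covered nearly that whole span, at 7.45, 6.79 and 6.27. Bhlhe40, a bHLH repressor that competes with the Arntl pair for E-boxes and also responds to hypoxia and growth signals, had 9.13, 9.11 and 9.12 in normal epithelia, 8.62, 8.51 and 8.73 in dysplasia epithelia and 8.71, 8.46 and 8.32 in SCC epithelia. Every lesion sample was below every normal sample, and dysplasia and SCC overlapped. The log2 changes from limma were -0.50 in dysplasia (standard error 0.12, adjusted p = 0.0299) and -0.62 in SCC (standard error 0.12, adjusted p = 0.00618). The call in dysplasia was lost without any 1 of the 6 normal and dysplasia arrays, with an adjusted p of up to 0.0872.

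The receptors of the second loop fell together. Nr1d1 read 9.62, 9.58 and 9.66 in normal epithelia, 9.0, 9.06 and 9.08 in dysplasia epithelia and 8.91, 8.85 and 8.55 in SCC epithelia, 3 narrow groups that did not overlap. The log2 change from limma was -0.57 in dysplasia (standard error 0.12, adjusted p = 0.0151) and -0.85 in SCC (standard error 0.12, adjusted p = 0.00130), the lowest p of any member in the epithelia. The call in dysplasia was lost without the first or the third normal sample or the third dysplasia sample, with an adjusted p of up to 0.0563. Nr1d2, its paralog, had 10.54, 10.40 and 10.43 in normal epithelia, 10.08, 9.75 and 9.58 in dysplasia epithelia and 8.89, 9.93 and 9.40 in SCC epithelia. The normal samples lay above all others, and SCC was 2.07-fold lower than normal (log2 change -1.05, standard error 0.24, adjusted p = 0.0122 from limma). The other Nr1d2 probe sets were called lower as well, at -0.91 and -0.68, and 1 of them was already called lower in dysplasia, at -0.46.

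The activators Arntl and Npas2 were not called at any stage of the epithelia. Arntl, the bHLH-PAS partner on which the loop depends, had 6.97, 6.33 and 7.09 in normal epithelia, 6.87, 7.32 and 7.05 in dysplasia epithelia and 7.32, 7.01 and 7.44 in SCC epithelia, and the 3 stages overlapped. Its change for SCC against normal was 0.46 (95% interval -0.04 to 0.95, adjusted p = 0.141 from limma). Npas2, a paralog of Clock, lay at 6.20 to 7.08 in all epithelia, with a change of 0.01 for SCC against normal (95% interval -0.46 to 0.47).

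Markers of other cell types moved with the stage in the epithelial samples. Of 16 fibroblast markers, all measured, 3 were called higher in SCC than in normal epithelia, beside 12.6% of all probe sets. Their mean log2 signal was 7.51 to 11.03 in SCC epithelia, against 6.40 to 7.98 in normal epithelia. Macrophage markers (16 of 16 measured, 12 called higher) had 7.11 to 9.36 in SCC epithelia, against 6.0 to 6.05 in normal epithelia. Both lists were highest in the second SCC sample. Without that sample the change for SCC against normal was -1.71 in Dbp, -1.29 in Tef, -0.91 in Per1, -0.60 in Bhlhe40, -0.89 in Nr1d1 and -1.31 in Nr1d2, all still called, and 0.85 in Per2, no longer called. The other SCC samples still had macrophage markers of 7.11 or above, against 6.0 to 6.05 in normal epithelia. Leaving out 1 sample therefore cannot separate the clock changes from the marker signal, whose part was not tested in any sample. Neutrophil markers (9 of 12 measured) had 7.71 to 8.88 in SCC epithelia, against 6.27 to 6.60 in normal epithelia. S100a8, S100a9, Mmp9 and Lcn2 were called higher among them and Np4 lower. Csf3r, Cxcr2, Mmp8 and Il1r2 were not called, at 1.45, 0.07, 0.01 and -0.77. The part of these genes was not tested either. Aligned on spike-in controls instead of the deposited scaling, the same 7 members were called in SCC against normal, beside 12.2% of all probe sets higher and 9.26% lower, and Nr1d1 and Bhlhe40 were no longer called in dysplasia against normal.

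**Figure D2:**
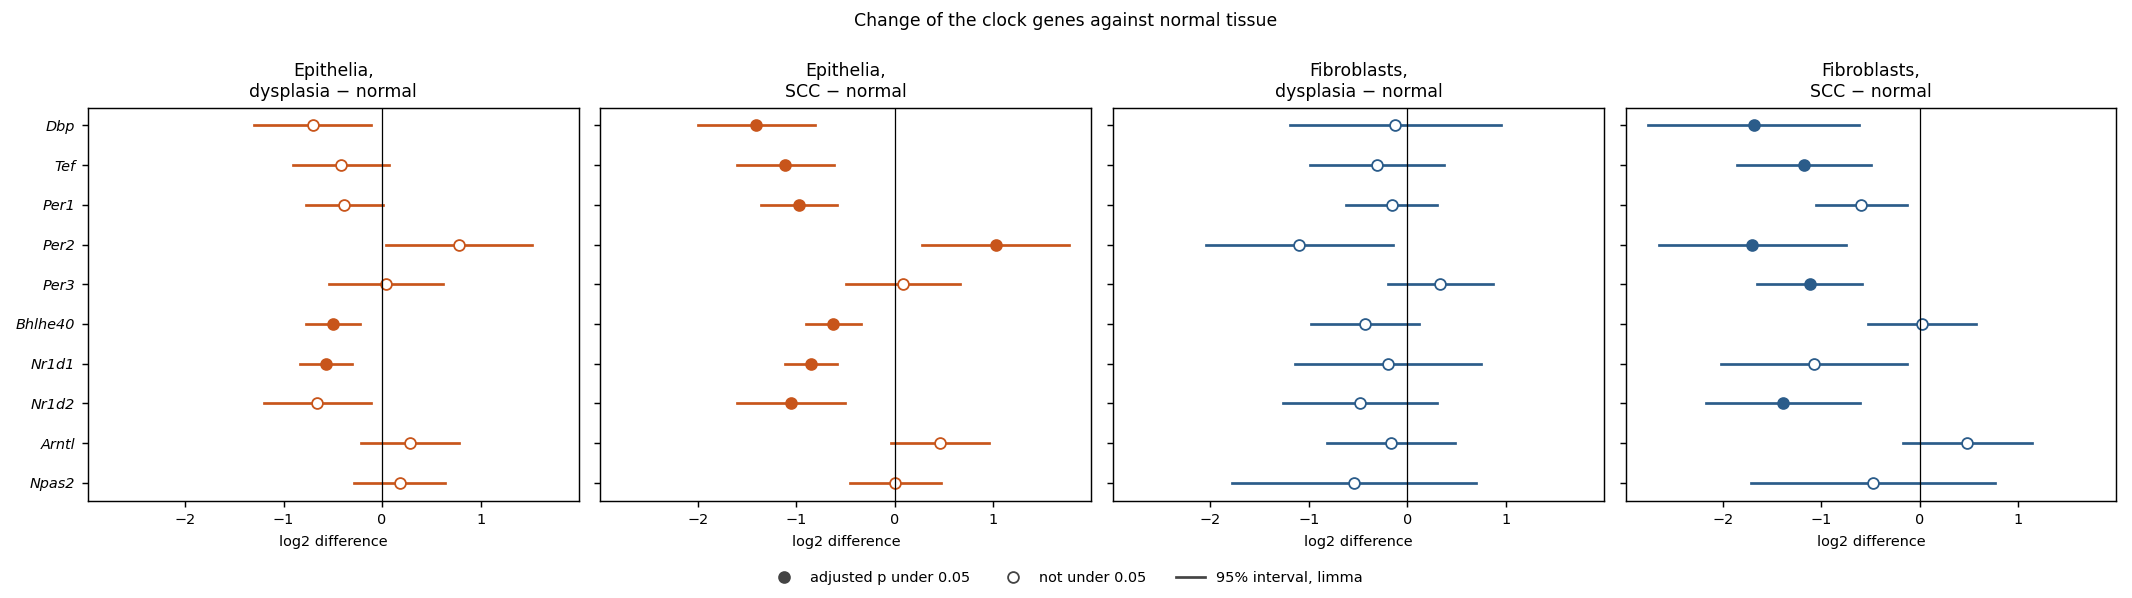
Log2 difference of each clock gene against normal tissue, 1 panel for each cell type and lesion stage, with 95% intervals from limma (n = 3 each). Filled points have an adjusted p under 0.05; in SCC epithelia 6 lie left of 0 and Per2 lies right of it at 1.02, and in SCC fibroblasts 5 lie left of 0, Per2 at -1.70.

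In the fibroblasts, 5 clock genes were lower in SCC than in normal tissue: Dbp, Tef, Per2, Per3 and Nr1d2, by 2.17-fold for Per3 to 3.25-fold for Per2. They stand beside 7.43% of all probe sets called lower, and no member was called higher, beside 7.82% of all. The median of the members was -1.10, and that of all probe sets -0.05. Without the third fibroblast samples, which leaves the close first and second ones, 8 members were called lower, where 22.2% of all probe sets were called lower. Per1, Nr1d1 and Npas2 were added, and Arntl and Bhlhe40 alone were not called. The 5 calls over all samples depended on single arrays: between 0 and 7 members were called with 1 array left out, and each of the 5 was lost without the first or second normal or SCC sample.

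Dbp read 10.54, 10.40 and 10.78 in normal fibroblasts, 9.98, 9.96 and 11.41 in dysplasia fibroblasts and 8.39, 8.40 and 9.87 in SCC fibroblasts. SCC lay below normal in every sample, and the third sample was the highest of each stage. The log2 change for SCC against normal was -1.69 (standard error 0.47, n = 3 each, adjusted p = 0.0442 from limma), and -2.08 (standard error 0.10) without the third samples. Tef had 9.18, 9.18 and 9.75 in normal fibroblasts, 8.77, 8.71 and 9.72 in dysplasia fibroblasts and 7.98, 8.03 and 8.58 in SCC fibroblasts. Its SCC samples stood below all others, with a change of -1.17 against normal (standard error 0.30, adjusted p = 0.0340 from limma) and -1.18 without the third samples. The other Tef probe sets changed by -0.13 and -0.50 and were not called.

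Per2 was lower in SCC fibroblasts, the direction opposite to its change in the epithelia. It read 10.12, 10.17 and 11.25 in normal fibroblasts, 9.03, 9.13 and 10.08 in dysplasia fibroblasts and 8.52, 8.41 and 9.51 in SCC fibroblasts. Normal samples were above all lesion samples and the third was the highest of each stage. The change for SCC against normal was -1.70 (standard error 0.42, adjusted p = 0.0303 from limma), or -1.68 without the third samples. The second Per2 probe set, flat in the epithelia too, changed by -0.19 (adjusted p = 0.417). Per3, a period gene of weaker clock phenotype in mice, had 9.07, 9.29 and 8.56 in normal fibroblasts, 9.18, 9.19 and 9.55 in dysplasia fibroblasts and 7.67, 7.65 and 8.25 in SCC fibroblasts. The SCC samples were below all others, with a change against normal of -1.12 (standard error 0.24, adjusted p = 0.0188 from limma) and of -1.52 without the third samples. A second, dim Per3 probe set at 4.14 to 4.97 in the fibroblasts changed by 0.15 and was not called.

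Per1 read 10.61, 10.62 and 10.42 in normal fibroblasts, 10.37, 10.42 and 10.39 in dysplasia fibroblasts and 9.69, 9.71 and 10.47 in SCC fibroblasts. Only the first and second SCC samples were low, and the change of -0.60 for SCC against normal was not called (standard error 0.20, adjusted p = 0.0769 from limma) but was called without the third samples, at -0.92 (standard error 0.10). Bhlhe40 showed no such fall, at 9.92, 9.71 and 10.72 in normal fibroblasts, 9.72, 9.74 and 9.60 in dysplasia fibroblasts and 10.17, 9.95 and 10.30 in SCC fibroblasts. Its SCC samples lay inside the normal range, and the change was 0.02 (95% interval -0.53 to 0.57).

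Nr1d1 had 11.30, 11.07 and 10.29 in normal fibroblasts, 10.32, 10.37 and 11.38 in dysplasia fibroblasts and 9.56, 9.28 and 10.58 in SCC fibroblasts. The third sample was the lowest of the normal group and the highest of the others, and the change for SCC against normal, -1.08 (standard error 0.42, adjusted p = 0.107 from limma), became -1.76 (standard error 0.14) and was called without the third samples. Nr1d2 read 11.97, 11.90 and 12.03 in normal fibroblasts, 11.24, 11.22 and 11.98 in dysplasia fibroblasts and 10.40, 9.95 and 11.38 in SCC fibroblasts. SCC was below normal in every sample, with a change of -1.39 (standard error 0.35, adjusted p = 0.0311 from limma) and of -1.76 without the third samples. Its other probe sets were called lower too, by -1.66 and -0.90.

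The activators Arntl and Npas2 were not called over all samples. Arntl had 6.81, 6.78 and 6.15 in normal fibroblasts, 6.56, 6.86 and 5.82 in dysplasia fibroblasts and 7.28, 7.10 and 6.81 in SCC fibroblasts. The third sample was the lowest of each stage, the first and second SCC samples were the highest of all, and the change for SCC against normal was 0.48 (95% interval -0.17 to 1.13, adjusted p = 0.269 from limma). Npas2 read 10.24, 10.09 and 7.95 in normal fibroblasts, 8.96, 8.93 and 8.77 in dysplasia fibroblasts and 8.78, 8.50 and 9.57 in SCC fibroblasts. The spread between the normal samples was the widest of any member in any group, the change of -0.48 was not called (standard error 0.55, adjusted p = 0.573), and without the third samples it was -1.53 (standard error 0.13) and called.

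Between dysplasia and normal fibroblasts limma called 0 members and 0.171% of all probe sets. Per2 alone had an unadjusted p under 0.05, at a change of -1.10 (adjusted p = 0.229), against 18% of all probe sets, and by the methods' t-test 0 members had one, against 14.2%. Without the third samples 6 members were called lower, Dbp, Per2, Nr1d1, Nr1d2, Tef and Npas2, with changes between -0.44 and -1.22, where 14% of all probe sets were called lower. Between SCC and dysplasia fibroblasts 1 member was called, Per3, at -1.45 (standard error 0.24, adjusted p = 0.0205 from limma), where 0.322% of all probe sets were called lower and 1.52% higher. That call was lost without any 1 of the 3 dysplasia samples or without the first or second SCC sample, with an adjusted p of up to 0.109. Same-numbered dysplasia and SCC fibroblast samples deviated together, and with the sample number as a block 4 members were called lower, Dbp at -1.57 (adjusted p = 0.0331), Per2 at -0.60 (0.0415), Per3 at -1.45 (0.0391) and Tef at -0.87 (0.0266), beside 0.709% of all probe sets. Without the third samples 7 members were lower, beside 7.36% of all probe sets, and Arntl, Npas2 and Bhlhe40 were not called.

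Markers of other cells differed in these samples too. Epithelial markers (15 of 20 measured, 0 called in SCC against normal by limma) had a mean log2 signal of 11.74 to 12.67 in SCC fibroblasts, against 10.38 to 12.47 in normal fibroblasts. Macrophage markers (16 of 16 measured, 0 called) had 9.90 to 11.57 in SCC fibroblasts, against 8.73 to 11.34 in normal fibroblasts. Neutrophil markers (9 of 12 measured) were called higher for 7 genes, beside 7.82% of all probe sets called higher. Their mean log2 signal was 10.3 to 10.7 in SCC fibroblasts, against 7.7 to 8.1 in normal fibroblasts. Fibroblast markers (16 of 16 measured) were called lower for 3 genes, beside 7.43% of all probe sets called lower. Their mean log2 signal was 11.46 to 12.23 in SCC fibroblasts, against 12.48 to 12.80 in normal fibroblasts. T and NK cell markers (13 of 13 measured) were called higher for 4 genes, beside the same 7.82% of all probe sets. They had 6.33 to 6.60 in SCC fibroblasts, against 5.84 to 6.05 in normal fibroblasts. The part of these markers in the changes of the clock genes was not tested. The difference between the 3′ and 5′ probe sets of actin, a sign of RNA quality, was 1.14 to 1.26 on the log2 scale in SCC fibroblasts, against 1.51 to 2.02 in normal fibroblasts, and its part was not tested either. Aligned on spike-in controls, which raised the median of all probe sets to 0.51 for SCC against normal and to 0.67 for SCC against dysplasia, the falls lost their calls: Dbp stood at -1.13, Per2 at -1.14, Nr1d2 at -0.83, Tef at -0.61 and Per3 at -0.56 against normal. Arntl was then called higher, by 1.04 against normal, beside 19.5% of all probe sets, and by 1.33 against dysplasia. Bhlhe40 was higher by 1.13 against dysplasia, where 23.1% of all probe sets were called higher.

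The clock genes also differed between the layers of normal tissue. The layers were prepared in the different ways given above, so layer and preparation cannot be told apart here. In normal tissue 8 of the 10 were lower in epithelia than in fibroblasts and none was higher, where 27.7% of all probe sets were called lower and 35.7% higher in a fit of all 18 arrays. The median of the members was -1.39, against 0.15 over all probe sets. Per2 was the most different, with means of 7.25 ± 0.14 in normal epithelia and 10.51 ± 0.64 in normal fibroblasts (SD, n = 3 each), 9.58-fold lower in epithelia (adjusted p = 5.02e-06 from limma). Npas2 was 7.0-fold lower in epithelia and Per3 4.68-fold lower. Dbp, Nr1d2, Nr1d1, Bhlhe40 and Per1 followed, with log2 differences of -1.64, -1.51, -1.27, -1.0 and -0.51. Tef, at -0.16 (95% interval -0.75 to 0.43), and Arntl, at 0.22 (95% interval -0.36 to 0.79), were not called.

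With the arrays aligned on spike-in controls the median of all probe sets moved to 0.94, and 3 members stayed lower, Per2 at -2.47, Npas2 at -2.02 and Per3 at -1.44, beside 12.5% of all probe sets, while Arntl was called higher in epithelia, at 1.01, beside 65.2%, and Per1 turned to 0.28, not called. Per1 was also lost without the first or the third normal epithelial sample and without the first or second normal fibroblast sample, with an adjusted p of up to 0.0989. The epithelial markers of 10.38 to 12.47 in the normal fibroblast samples stand beside all of these differences. So do the listed immediate early genes (14 of 15 measured), read from the values as deposited. All were called lower in normal epithelia except Egr3, which was called higher, at 1.3. The largest falls were Fosb at -6.36, Egr2 at -5.99, Atf3 at -5.88 and Nr4a1 at -5.03. The part of the preparation in the differences of the clock genes was not tested. Without the third fibroblast samples the same 8 members were called lower, beside 27.9% of all probe sets. A dim second Per3 probe set and 1 of the other Tef probe sets ran the opposite way and were called higher in epithelia, at 0.80 and 0.84.

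**Figure D3:**
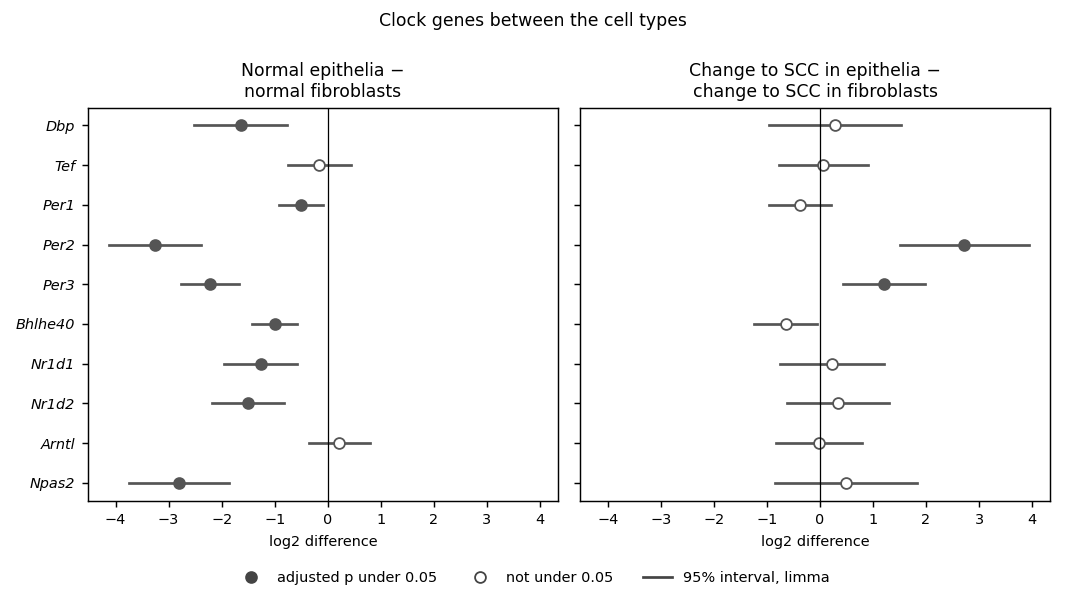
Log2 difference of each clock gene between normal epithelia and normal fibroblasts (left) and between the changes from normal to SCC in the 2 cell types, epithelia minus fibroblasts (right), with 95% intervals from limma over all 18 arrays. Filled points have an adjusted p under 0.05; 8 genes are lower in normal epithelia, and Per2 at 2.72 and Per3 at 1.20 are the filled points on the right.

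A test of the difference between the changes in the 2 cell types answers which genes moved unequally in epithelia and fibroblasts. From normal to SCC it called Per2 and Per3, 2 of 10 members, beside 7.12% of all probe sets called higher and 9.39% lower. Per2 changed by 1.02 in epithelia and by -1.70 in fibroblasts, a difference of 2.72 (standard error 0.57, adjusted p = 0.00551 from limma) that was called with any of the 18 arrays left out and with the third fibroblast samples left out. Per3 changed by 0.09 in epithelia and by -1.12 in fibroblasts, a difference of 1.20 (standard error 0.37, adjusted p = 0.0359), which was lost in 9 of the 18 fits with 1 array left out, those without 1 of the normal epithelial samples, the first or second SCC epithelial sample, or the first or second normal or SCC fibroblast sample, and also with spike-in alignment. The flat second probe set of Per2 gave a difference of 0.22 and the dim second probe set of Per3 gave -0.13, neither called. For Dbp the difference was 0.28 (95% interval -0.96 to 1.52), for Nr1d2 0.34 (95% interval -0.62 to 1.29) and for Tef 0.06 (95% interval -0.77 to 0.90).

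From normal to dysplasia limma called 0 members, beside 4.13% of all probe sets, and Per2 alone had an unadjusted p under 0.05, at a difference of 1.88 (adjusted p = 0.0752), against 21.2% of all probe sets. With the third fibroblast samples left out, Per2 at 1.84 and Npas2 at 1.40 were called, beside 5.38% of all probe sets called higher. From normal to SCC the same fit called 5 members, with Nr1d1 at 0.92, Npas2 at 1.53 and Bhlhe40 at -0.86 added to Per2 and Per3, beside 12.1% of all probe sets called higher and 15.6% lower.

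Samples of 1 group also differed from each other in the clock genes. The third fibroblast sample lay farther from the mean of the others than the first and second lay from each other in 10 of 10 members at the normal stage, in 9 at dysplasia and in 10 at SCC, and the third epithelial sample did so in 2, 6 and 4 members at the same stages. It was the highest fibroblast sample for 5 members at the normal stage, for 6 at dysplasia and for 9 at SCC. For Arntl it was the lowest at all 3 stages. In dysplasia fibroblasts the third sample lay above the mean of the others by 1.44 in Dbp, 1.03 in Nr1d1 and 1.00 in Per2, and in SCC fibroblasts by 1.48 in Dbp, 1.16 in Nr1d1 and 1.04 in Per2. In normal fibroblasts it was higher by 1.11 in Per2 and lower in Nr1d1, at -0.90. These samples were also the lowest of their stage in epithelial markers, whose part in the gaps was not tested.

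**Figure D4:**
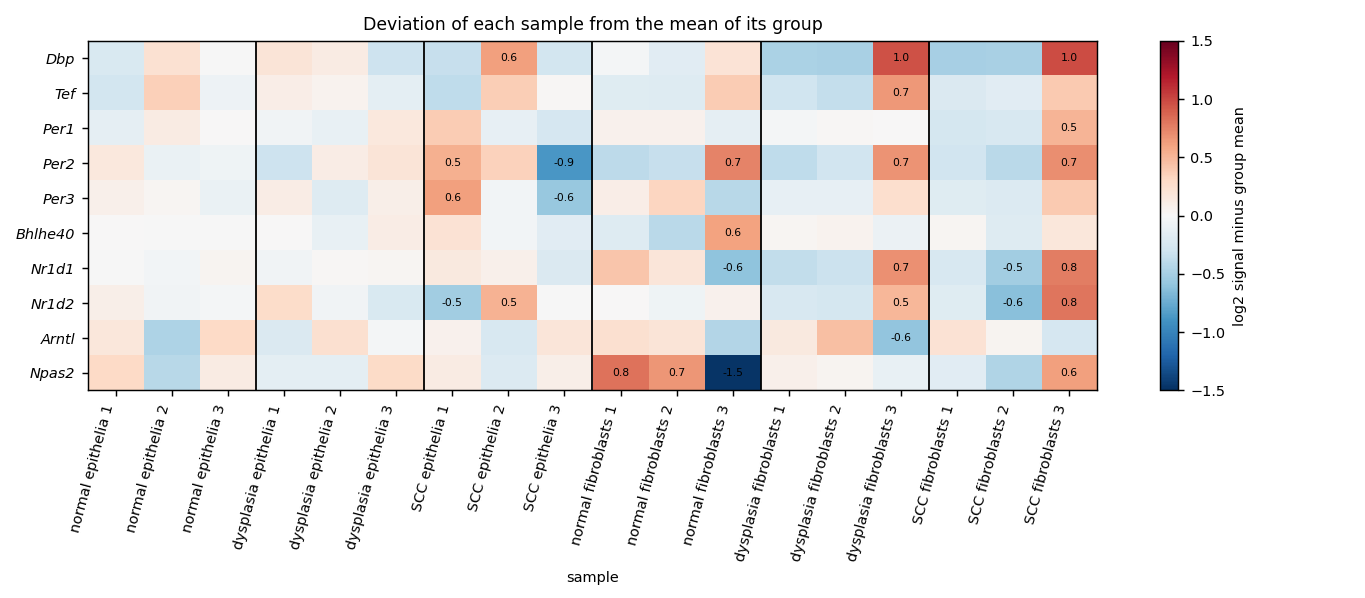
Deviation of each of the 18 samples from the mean of its group in log2 signal, 1 row a clock gene and 1 column a sample; red is above the group mean and blue below, and values past 0.5 are printed. The third dysplasia and SCC fibroblast samples are red in Dbp, Tef, Per2, Nr1d1 and Nr1d2, and the third normal fibroblast sample is blue in Npas2.

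Other genes of the clock and its known outputs were read from lists chosen with these arrays known, 25 measured of 30 listed. In SCC against normal epithelia 2 of the 25 were called higher and 7 lower, beside 12.6% of all probe sets called higher and 17.3% lower, with a median of -0.13. Cry2, a cryptochrome and partner of the period proteins, was lower by -1.01 (adjusted p = 0.00412 from limma), with 7.43, 7.79 and 7.23 in SCC epithelia, against 8.47, 8.72 and 8.30 in normal epithelia. The receptors Rora, at -1.08, and Rorb, at -0.69, fell as Nr1d1 and Nr1d2 did, so that all 4 measured receptors of the second loop were lower. Nfil3, the repressor of D-box genes, was higher, at 9.69, 9.63 and 9.33 in SCC epithelia, against 8.28, 7.75 and 8.67 in normal epithelia (log2 change 1.32, adjusted p = 0.00325), while Dbp and Tef were lower. Timeless, whose mammalian product acts at DNA replication forks, was higher by 1.43 in SCC and by 1.43 in dysplasia, and 15 of 18 cell cycle genes were higher in SCC epithelia, beside the same 12.6%.

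The outputs Usp2, a deubiquitinase, and Wee1, a kinase of the G2 checkpoint, were lower in SCC epithelia, by -1.08 and -0.65, as were Cipc, an inhibitor of Clock, at -0.60 and Arntl2, a paralog of Arntl, at -0.61. In dysplasia epithelia 3 of the 25 were lower, Cry2 at -0.81, Usp2 at -0.97 and Rora at -0.60, and Timeless alone was higher, beside 7.54% of all probe sets called lower and 7% higher.

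In SCC against normal fibroblasts 3 of the 25 were lower and 1 higher, beside 7.43% of all probe sets called lower and 7.82% higher, all over the 3 samples of each stage. Bhlhe41, the paralog of Bhlhe40, read 8.99, 8.83 and 10.48 in SCC fibroblasts, against 11.69, 11.46 and 11.25 in normal fibroblasts, a change of -2.03 (adjusted p = 0.0300 from limma) beside 0.02 in Bhlhe40. Cry2 at -1.22 and Wee1 at -1.24 were lower as in the epithelia. Nampt, the rate-limiting enzyme of NAD salvage and an E-box target, was higher, at 11.06, 10.94 and 11.14 in SCC fibroblasts, against 9.86, 9.87 and 9.89 in normal fibroblasts (log2 change 1.17, adjusted p = 0.00170). Between normal epithelia and normal fibroblasts 7 of the 25 were higher and 11 lower, beside 35.7% of all probe sets called higher and 27.7% lower, and Clock, the partner of Arntl, was higher in epithelia by 1.03, while its paralog Npas2 was lower.

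Genes of glucocorticoid receptor action were counted beside Per1, which is itself a known target of that receptor. Of 11 measured targets 2 were higher and none lower in SCC against normal epithelia, beside 12.6% of all probe sets called higher. These were the chaperone Fkbp5 at 2.85 and the factor Cebpd at 2.49. The other targets were not called, among them Dusp1 at 1.20, Klf9 at 0.48 and Mt1a at -0.56. Per1 was lower, and the part of the receptor was not tested. In SCC against normal fibroblasts, again over all samples, Ddit4, an inhibitor of mTOR signalling, was higher by 1.55, and the factor Klf9, at -0.95, and the cell cycle inhibitor Cdkn1c, at -1.53, were lower, beside 7.82% of all probe sets called higher and 7.43% lower. Fkbp5 was highest in the second SCC epithelial sample, at 8.74 beside 6.16 and 5.77, the sample with the most fibroblast marker signal, and 9 of the 11 targets were lower in normal epithelia than in normal fibroblasts, beside 27.7% of all probe sets.

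Genes outside the members whose signals followed Dbp most closely were sought among 9227 genes. The members themselves were left out of this search, so their likeness to Dbp was not compared. Genes were ranked by the lower of the correlations over the 9 epithelial and the 9 fibroblast samples, which share stage and sample number. Rab11b, a GTPase of vesicle recycling, came first, with r = 0.95 in epithelia and 0.97 in fibroblasts. Its means were 11.39, 11.08 and 10.90 in normal, dysplasia and SCC epithelia and 11.86, 11.81 and 11.51 in the fibroblasts of the same stages, far smaller shifts than those of Dbp. Pcmtd2 (r = 0.94 in both), the membrane carboxypeptidase Cpm (0.92 and 0.93), the zinc finger repressor Zbtb4 (0.91 and 0.99) and the autophagy protein Map1lc3a (0.91 and 0.97) came next. None of these is among the listed clock genes outside the members. Closest to Arntl outside the members was Mkln1, with r = 0.92 in epithelia and 0.90 in fibroblasts. Nemp2, Rrp1b, Tmem181 and Hspa4l followed, with a lower r of 0.78 to 0.82. These correlations are descriptions over 9 samples each.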

How the data were processed

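RNA of tongue epithelia and submucosal fibroblasts was hybridised to 18 Affymetrix rat arrays, 3 in each of 6 groups taken from the labels. The authors deposited 1 intensity per probe set and array, on a linear scale. RMA and the Expression Console of Affymetrix are credited to the submitters' processing notes, and the sources used here give neither their versions nor the step back from RMA's log scale. Array medians lay between 92.2 and 115.8, and 1 was the lowest value of every array. Values were taken to log2 with no further normalization. The file holds 31099 probe sets. Without the 57 controls, 31042 were tested with no filter on dim signals, since no detection calls were used; 20826 name 1 gene, 436 several and 9780 none. No gene was named from a probe set of several. The number of arrays limits the precision.

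Stage contrasts were fitted for each cell type with limma 3.58.1 in R 4.3.3, and contrasts between cell types over all 18 arrays, with Benjamini-Hochberg adjustment over all probe sets; all adjusted p-values are from limma. The fit was tested on simulated data. The named genes are every member, up to 4 called genes a list with the largest change, and the 5 genes outside the members most like Dbp and Arntl. Further listed genes named beside small counts were chosen after their values were seen. The members and lists were chosen with earlier results of these data known, so their tests are no independent evidence. Promoter windows are from RefSeq, build GRCr8.

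Whether equal sample numbers pair the stages was checked on how their deviations from the group means correlate. Every pair was above 0.1 for SCC and dysplasia fibroblasts alone (0.321 to 0.592), where the blocked value is given beside the result. Even there only 4 of 6 arrays correlated best with their own number, and differently numbered arrays reached 0.352. The alternatives were quantile normalization, alignment on 9 spike-in probe sets, a filter at a mean log2 signal of 7, 1 fit of all arrays, the number as a block, trended and robust moderation, the methods' t-test, the mean of a gene's probe sets, each array left out, and the third fibroblast samples left out.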

Additional observations from a re-analysis of the deposited data

Results flagged for a closer look

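Among the clock genes, Per2 and Per3 differed between the cell types in their change from normal to SCC by a test of that difference in limma: by 2.72 for Per2 and by 1.20 for Per3 on the log2 scale, epithelia minus fibroblasts. The same test called 3 of the 25 measured genes of the wider clock, Bhlhe41 at 2.51, Nfil3 at 1.51 and Cipc at -0.91. Over all probe sets it called 7.12% higher and 9.39% lower. Of the 11 measured glucocorticoid receptor targets it called 5, Cebpd at 2.89, Cdkn1c at 2.37, Fkbp5 at 2.36, Klf9 at 1.43 and Ddit4 at -1.71. Cebpd, Cdkn1c, Fkbp5 and Klf9 were lower in normal epithelia than in normal fibroblasts, at -5.22, -4.68, -5.10 and -4.67. So were targets that the test did not call, among them Tsc22d3 at -4.04. Fibroblast markers had a mean log2 signal of 7.51 to 11.03 in SCC epithelia, against 6.40 to 7.98 in normal epithelia. The part of this marker signal was not tested. For the change from normal to dysplasia the test called Timeless alone of the 25, at 1.62, beside 4.13% of all probe sets.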

How the results depend on the processing

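Of 1801 single-gene values under an alternative, 1655 kept their direction and side of the threshold or had no call on either side, 97 lost a call, 48 gained one and 1 reversed, Per1 between normal epithelia and normal fibroblasts, at 0.28 with spike-in alignment and -0.51 as deposited. Where a count of called members moved by over 1.5 times, the cause was not tested. With spike-in alignment, it was 0 for dysplasia against normal epithelia (2 as deposited), 2 for SCC against dysplasia fibroblasts (1 as deposited, a different gene), 1 for SCC against normal fibroblasts (5), 4 between the normal layers (8) and 1 for the difference of the changes to SCC (2). That alignment brought the median of all probe sets to 0.94 between the normal layers (0.15 as deposited), and in SCC against normal fibroblasts turned 2427 probe sets called higher and 2306 lower into 6060 and 173, in SCC against dysplasia fibroblasts 473 and 100 into 7177 and 12, in dysplasia against normal epithelia 2174 and 2342 into 2354 and 850, in SCC against normal epithelia 3898 and 5369 into 3794 and 2875, between the normal layers 11095 and 8597 into 20248 and 3870, and for the difference of the changes 600 and 682 into 323 and 77 at dysplasia and 2210 and 2916 into 597 and 4854 at SCC. With 1 fit of all arrays, 0 members were called in dysplasia against normal epithelia and 2 in SCC against dysplasia fibroblasts. By the methods' t-test, 2 were called in SCC against normal epithelia, 0 in SCC against normal fibroblasts and 0 in SCC against dysplasia fibroblasts. With the mean of a gene's probe sets, 1 was called for the difference of the changes to dysplasia and 1 for that to SCC. Without the third fibroblast samples, 6 were called in dysplasia against normal, 7 in SCC against dysplasia and 8 in SCC against normal fibroblasts, and 2 and 5 for the differences of the changes to dysplasia and SCC. With 1 array left out, the counts ran over 0 to 4 in dysplasia against normal, 0 to 0 in SCC against dysplasia and 6 to 7 in SCC against normal epithelia, over 0 to 0, 0 to 4 and 0 to 7 in the same comparisons of fibroblasts, over 7 to 8 between the layers, and over 0 to 1 and 1 to 4 for the differences of the changes. With the sample number as a block, 4 members were called in SCC against dysplasia fibroblasts, the pairing described above; elsewhere the numbers met no rule of pairing (5 of 6 arrays correlated best with their own number in dysplasia and normal fibroblasts, and 0 to 5 in the others), and the block lost Per2 in SCC against normal epithelia and gave 1 in dysplasia against normal epithelia, 1 in dysplasia against normal fibroblasts and 1 for the difference of the changes to dysplasia. A mean log2 signal above 7 left Arntl out, so it has no value there. Only 3 arrays a group limit the precision, and dim probe sets such as the second one of Per3 have no detection call here.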
